A study of Mus musculus with 8 samples.

Results

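The genes described here encode alpha-T-catenin (Ctnna3), 4 other catenins (Ctnna1, Ctnnb1, Ctnnd1 and Jup) and 3 cadherins (Cdh2, Cdh13 and Cdh15), 8 of the 19938 genes measured. They were taken by symbol from the transcript clusters annotated to a single gene, and each had exactly 1 such cluster. Ctnna3 was picked because it was lower in knockout muscle, so its genotype difference is given as a description with no test; the other 7 were taken as catenins and as cadherins of muscle tissue. The samples were gastrocnemius muscles, a mixed calf muscle, of 8 male mice aged 6 months on a chow diet that were fasted for 5 h. The 4 knockout mice (Gcn5skm-/-; HSAcre Tg/0, Gcn5 L2/L2) carried the floxed Gcn5 gene (symbol Kat2a) and a Cre transgene that the promoter of human skeletal actin switches on in muscle fibres. The 4 wild-type mice (Gcn5skm+/+; HSAcre 0/0, Gcn5 L2/L2) carried the same floxed gene without Cre. Other cells of the muscle keep the gene in both groups, and effects of the Cre transgene and of the deletion cannot be told apart. Each animal gave 1 Affymetrix array, and all levels are the authors' log2 values made with RMA, a method that corrects background, normalizes arrays and summarises probes; the number of arrays limits the precision. A whole-muscle level cannot tell fewer cells of a type from less RNA per cell.

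Classical cadherins are membrane proteins that bind a like cadherin on the next cell, and their cytoplasmic tails hold the catenins. Beta-catenin or its relative plakoglobin binds the tail and carries an alpha-catenin, which in turn binds actin, while p120-catenin binds nearer the membrane and keeps the cadherin at the cell surface. Alpha-T-catenin is an alpha-catenin of heart and skeletal muscle and of testis, and at the intercalated discs of the heart it also binds the desmosomal protein plakophilin-2. Beta-catenin has a second role as the transcriptional coactivator of Wnt signalling.

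As a check of the labels, Kat2a measured 5.81, 5.84, 5.79 and 5.73 in knockouts 1 to 4 and 6.50, 6.46, 6.45 and 6.43 in wild types 1 to 4. Every knockout lay below every wild type (difference -0.66, SE 0.08, limma adjusted p = 0.0319). Fast-fibre markers, the defining genes of this muscle, had list means of 11.70 to 11.93 in knockouts and 11.85 to 11.93 in wild types. Averaged over its 7 partners, the correlation of an array was 0.977 for wild type 2, 0.981 for wild type 4 and 0.985 to 0.987 for the 6 others.

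The starts of Ctnna3 are shown because this is the gene with the fall, and that of Lrrtm3 because it is nested within Ctnna3 on the opposite strand. RefSeq's promoter table (GRCm38.p6) matched 5 of the 8 members and lists 3 start windows for Ctnna3. Each sequence holds the 250 bases before the start, 5′ to 3′ on the gene's strand. Capitals mark letters searched on both strands. They are TATAAA, the core promoter element near many starts, CANNTG, the E-box bound by myogenic bHLH factors, and AGATAA, which GATA factors bind. Windows of Ctnna3 lie on the + strand at chr10:63429848-63430097, chr10:63457261-63457510 and chr10:63820805-63821054, and that of Lrrtm3 on the - strand at chr10:64090256-64090505.
Ctnna3 start 1: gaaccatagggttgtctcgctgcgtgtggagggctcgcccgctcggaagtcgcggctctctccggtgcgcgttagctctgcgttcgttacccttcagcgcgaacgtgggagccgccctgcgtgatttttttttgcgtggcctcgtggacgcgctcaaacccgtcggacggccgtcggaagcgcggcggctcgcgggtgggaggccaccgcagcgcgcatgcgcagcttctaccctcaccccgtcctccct
Ctnna3 start 2: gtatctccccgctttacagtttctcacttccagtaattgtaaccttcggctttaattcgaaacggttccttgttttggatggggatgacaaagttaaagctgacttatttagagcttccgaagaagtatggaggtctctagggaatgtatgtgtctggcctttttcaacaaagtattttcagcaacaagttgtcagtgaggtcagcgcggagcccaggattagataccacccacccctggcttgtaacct
Ctnna3 start 3: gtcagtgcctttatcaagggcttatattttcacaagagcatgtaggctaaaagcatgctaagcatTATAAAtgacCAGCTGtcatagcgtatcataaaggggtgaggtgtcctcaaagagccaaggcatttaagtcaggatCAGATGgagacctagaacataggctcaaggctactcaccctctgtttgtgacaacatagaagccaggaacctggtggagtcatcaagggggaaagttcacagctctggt
Lrrtm3: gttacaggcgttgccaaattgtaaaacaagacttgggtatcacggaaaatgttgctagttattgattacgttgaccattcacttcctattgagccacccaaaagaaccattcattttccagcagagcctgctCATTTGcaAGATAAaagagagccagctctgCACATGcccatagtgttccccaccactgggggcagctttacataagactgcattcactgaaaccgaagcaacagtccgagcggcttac
The 3 windows of Ctnna3 differ in base composition. The first has 67.6% G or C and 36 CpG dinucleotides, the second 44.8% and 7, and the third 45.6% and 1, beside medians of 52.4% and 6 over all 32851 windows. The third window holds a TATA match, first base 185 bases before the start, and E-box matches CAGCTG and CAGATG, first bases 175 and 109 bases before it. Over all windows, 12.4% hold the TATA letters and 66.2% an E-box. The first and second windows hold none of the motifs searched, which also included the AP-1 letters TGANTCA (6.7% of windows), the MEF2 letters CTANNNNTAG (3.2%) and the CArG box of serum response factor (1.5%). The window of Lrrtm3 holds 1 AGATAA match (held by 3281 of 32851 windows) and 2 E-boxes. In the human gene, GATA and MEF2 sites have been described in the promoter. These letter matches are descriptions of the windows and not binding sites, and the array does not show which start was used.

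Ctnna3, which encodes an alpha-catenin of striated muscle, measured 5.40, 5.71, 5.52 and 5.08 in knockouts 1 to 4 and 6.31, 6.32, 6.09 and 6.20 in wild types 1 to 4. The groups did not overlap, and 0.38 log2 units separated the highest knockout (knockout 2) from the lowest wild type (wild type 3). The mean was 5.43 ± 0.26 in knockouts and 6.23 ± 0.11 in wild types (SD, n = 4 each), a difference of -0.80, or 0.573 of the wild-type level on the linear scale. This was the 11th lowest difference of 19938 genes, and 0.356% of all genes had a difference at or below -0.5. These values chose the gene and are a description. Knockouts were spread more widely than wild types, with knockout 4 lowest. Leaving out knockout 4 gave a difference of -0.69, and leaving out knockout 2, the highest of its group, gave -0.90. The signal of Ctnna3 lay at the 66.0th percentile of all genes by mean, which shows that the cluster was not dim. Where its probes lie among the exons is not known here.

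**Figure D1:**
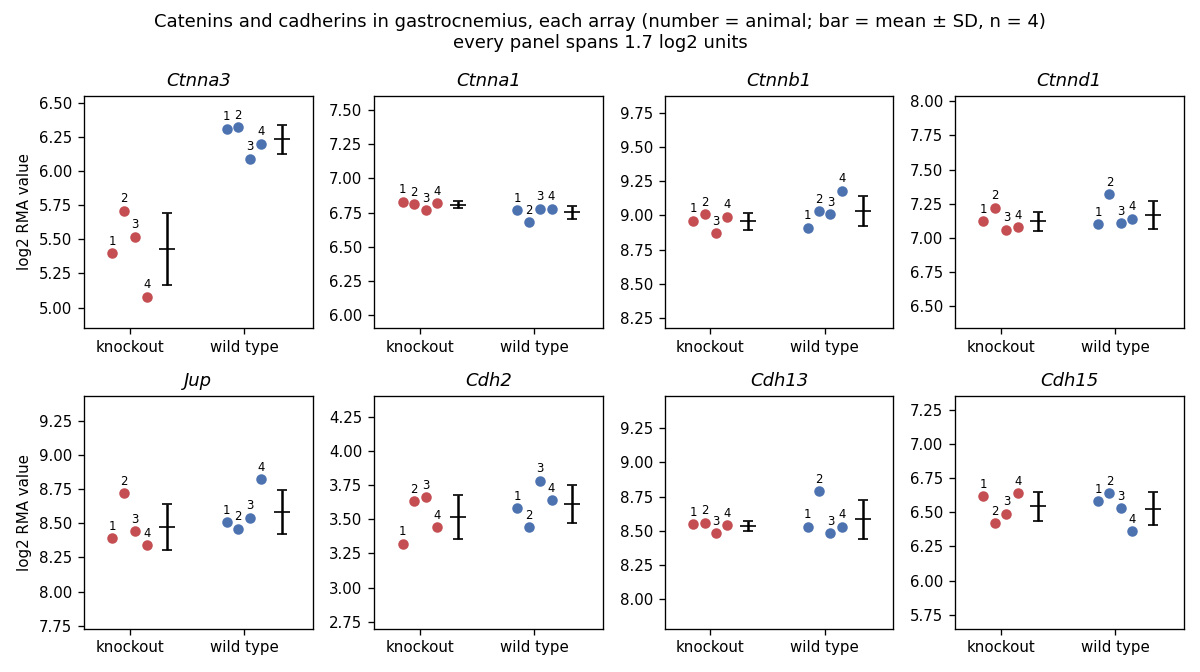
Log2 RMA value (y axis) of each of the 8 members in 4 knockouts (left) and 4 wild types (right), with numbers naming the animals and bars giving the mean ± SD; every panel spans the same number of log2 units. The Ctnna3 groups lie apart, 5.08 to 5.71 in knockouts and 6.09 to 6.32 in wild types, and those of the other 7 genes overlap.

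Lrrtm3, a leucine-rich repeat protein of synapses, lies inside Ctnna3 and was measured by its own cluster. It had 4.85, 4.48, 4.66 and 5.09 in knockouts 1 to 4 and 4.82, 4.88, 4.30 and 4.84 in wild types 1 to 4. The groups overlapped, and the difference was 0.06 (SE 0.15, limma adjusted p = 0.969). The 10 nearest measured genes outside Ctnna3, 5 on each side, were picked by position and had differences between -0.20 and 0.08, with 0.861 as their lowest limma adjusted p. Among them were Mypn, which encodes the Z-disc protein myopalladin, at -0.20 (SE 0.09), and Sirt1, which encodes a protein deacetylase, at 0.02 (SE 0.13). The genes nested in the other alpha-catenin genes were dim. Lrrtm1, nested in Ctnna2, measured 2.61 ± 0.03 in knockouts and 2.83 ± 0.19 in wild types. Its groups lay apart, 2.57 to 2.64 in knockouts and 2.68 to 3.11 in wild types, as for 2.14% of all genes with knockouts lower, and it missed the threshold (limma unadjusted p = 0.0506, adjusted p = 0.861). Lrrtm2, nested in Ctnna1, measured 3.65 ± 0.32 in knockouts and 3.62 ± 0.30 in wild types, and its groups overlapped (limma adjusted p = 0.986).

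Of the 7 other members, 0 passed a 5% false discovery rate in limma, where 0.0150% of all genes did (0.00502% higher and 0.0100% lower in knockouts), and 0 had an unadjusted p under 0.05, where 5.73% of all genes did. Their differences lay between -0.11 and 0.05, 5 below 0 and 2 above, with a median of -0.05, beside a median of -0.01 over all genes and 54.7% of genes below 0. In 0 of the 7 did knockouts and wild types lie apart, as they did for 3.62% of all genes.

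Ctnna1, which encodes alpha-E-catenin, an alpha-catenin of many tissues, measured 6.83, 6.81, 6.77 and 6.82 in knockouts 1 to 4 and 6.77, 6.68, 6.78 and 6.78 in wild types 1 to 4. Its signal lay at the 80.6th percentile of all genes by mean. The groups overlapped, with wild type 2 lowest. The difference was 0.05 (95% interval -0.12 to 0.22, limma adjusted p = 0.939). Ctnna1 varied little between animals, with an SD within genotype of 0.04 that only 0.4% of genes matched or undercut, while that of Ctnna3 was 0.20, at the 77.4th percentile. The remaining relatives of the family were read from the same fit. Ctnna2, the alpha-N-catenin of neurons, was dim, at 3.27 ± 0.02 in knockouts and 3.20 ± 0.09 in wild types (difference 0.07, limma adjusted p = 0.931). Ctnnal1, which encodes alpha-catulin, measured 5.27 ± 0.10 in knockouts and 5.52 ± 0.24 in wild types (difference -0.25, SE 0.12, limma adjusted p = 0.869).

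Vinculin, an actin-binding relative that joins alpha-catenins at junctions and talin at costameres, was the relative whose groups lay apart. Vcl measured 7.62, 7.66, 7.58 and 7.59 in knockouts 1 to 4 and 7.86, 7.92, 7.79 and 7.91 in wild types 1 to 4. Each knockout was below each wild type, as for 2.14% of all genes. Its difference of -0.26 (SE 0.08, 95% interval -0.43 to -0.09) missed the threshold over all genes (limma unadjusted p = 0.00626, adjusted p = 0.742). Of the 3 relatives, 0 passed.

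Ctnnb1, which encodes beta-catenin, measured 8.96, 9.01, 8.87 and 8.99 in knockouts 1 to 4 and 8.91, 9.03, 9.01 and 9.18 in wild types 1 to 4. The groups overlapped, with wild type 4 highest, and the difference was -0.08 (95% interval -0.27 to 0.11, limma adjusted p = 0.931). Jup, which encodes plakoglobin, the catenin shared by adherens junctions and desmosomes, measured 8.39, 8.72, 8.44 and 8.34 in knockouts 1 to 4 and 8.51, 8.46, 8.54 and 8.82 in wild types 1 to 4. Knockout 2 and wild type 4 stood highest in their groups, and the difference was -0.11 (95% interval -0.35 to 0.13, limma adjusted p = 0.923). Jup lies on chromosome 11 with Kat2a, with 18 RefSeq genes between them. The 10 measured genes nearest to Kat2a differed by -0.09 to 0.18, with a lowest limma adjusted p of 0.876. Ctnnd1, which encodes p120-catenin, measured 7.12, 7.22, 7.06 and 7.08 in knockouts 1 to 4 and 7.10, 7.32, 7.11 and 7.14 in wild types 1 to 4. The number 2 animal was highest in each group, and the difference of -0.05 (95% interval -0.24 to 0.14, limma adjusted p = 0.952) was 0.00227 without wild type 2.

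Cdh15, which encodes M-cadherin of satellite cells and myoblasts, measured 6.62, 6.42, 6.49 and 6.64 in knockouts 1 to 4 and 6.58, 6.64, 6.53 and 6.36 in wild types 1 to 4. The ranges were nearly the same, and the difference was 0.02 (95% interval -0.19 to 0.22, limma adjusted p = 0.986). Cdh2, which encodes N-cadherin, measured 3.32, 3.63, 3.66 and 3.44 in knockouts 1 to 4 and 3.58, 3.44, 3.78 and 3.64 in wild types 1 to 4. Its cluster was dim, at the 21.6th percentile of all genes, where RMA compresses differences, and the difference was -0.10 (95% interval -0.33 to 0.13, limma adjusted p = 0.928). Cdh13 encodes T-cadherin, which is anchored by a lipid, has no tail for catenins and binds adiponectin. It measured 8.55, 8.56, 8.48 and 8.54 in knockouts 1 to 4 and 8.53, 8.79, 8.48 and 8.53 in wild types 1 to 4. Wild type 2 stood above the rest, and the difference of -0.05 (95% interval -0.25 to 0.15, limma adjusted p = 0.953) was 0.02 without that array.

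**Figure D2:**
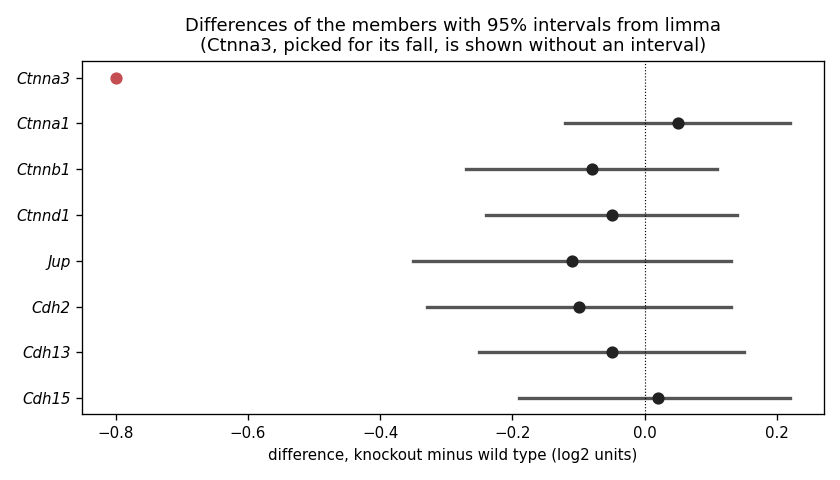
Difference of each member, knockout minus wild type, in log2 units (x axis), with 95% intervals from limma as lines for the 7 genes not chosen by this comparison. Ctnna3 lies at -0.80, and the 7 intervals together span -0.35 to 0.22 and each include 0.

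Pathway genes around the members were read as lists, with counts and medians and no test of a list. Over all genes, 54.7% were below 0 and the median was -0.01. In the lists, 0 genes passed a 5% false discovery rate in limma, where 0.0150% of all genes did. Of the 6 measured p120 relatives and plakophilins 4 were below 0 (median -0.06). Pkp2, which encodes the plakophilin that binds alpha-T-catenin in heart, measured 5.27 ± 0.24 in knockouts and 5.40 ± 0.25 in wild types (limma adjusted p = 0.930), Pkp4 differed by 0.16 and Arvcf by -0.08. Desmosome genes were dim, and 4 of 7 measured were below 0 (median -0.02), with Dsg4, Dsg3 and Dsc3 at 0.09, -0.10 and 0.08. Of the 16 other classical cadherins 6 were below 0 (median 0.03), with Cdh6 at -0.20, Cdh18 at 0.20 and Cdh7 at 0.15. Cdh7 was the 1 gene of 16 whose groups lay apart, with knockouts higher, beside 1.48% of all genes, at a dim 3.47 ± 0.10 in knockouts and 3.32 ± 0.05 in wild types (limma adjusted p = 0.876).

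Linkers between junction and cytoskeleton were below 0 in 11 of 18 cases (median -0.08). Nectin1, an adhesion receptor that joins cadherin junctions through afadin, measured 5.07 ± 0.16 in knockouts and 5.26 ± 0.03 in wild types. The scaffold gene Iqgap1 differed by -0.17 and Zyx, which encodes the actin-regulating protein zyxin, by -0.19, and the lowest limma adjusted p of the list was 0.869. Muscle membrane and Z-disc linkers were below 0 in 13 of 16 cases (median -0.03). Xirp1 encodes Xin, an actin-binding protein that also joins beta-catenin at intercalated discs. It measured 7.77, 8.33, 8.28 and 7.89 in knockouts 1 to 4 and 8.11, 8.31, 9.42 and 8.72 in wild types 1 to 4. The groups overlapped and wild type 3 was the highest (difference -0.57, SE 0.24, limma adjusted p = 0.861). Flnc, which encodes filamin C, differed by -0.22 and Ank2, an ankyrin gene, by 0.19. Des, which encodes the intermediate filament protein desmin and was chosen after its values were seen, was the 1 gene of 16 whose groups lay apart, with knockouts lower, beside 2.14% of all genes (difference -0.09, limma adjusted p = 0.904).

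The other role of beta-catenin was covered by 3 lists. Of 10 genes of the destruction complex, which marks beta-catenin for breakdown, 7 were below 0 (median -0.06). Fbxw11, a ubiquitin ligase subunit, measured 7.47 ± 0.13 in knockouts and 7.73 ± 0.21 in wild types (difference -0.26, limma adjusted p = 0.861), and the kinase gene Gsk3b differed by -0.17. Its relative Gsk3a, chosen after its values were seen, was the 1 gene of 10 whose groups lay apart, with knockouts lower, beside 2.14% of all genes (difference -0.12, limma adjusted p = 0.877). Of 8 TCF partners 5 were below 0 (median -0.05), with Ctnnbip1, an inhibitor of beta-catenin, at 0.19, Pygo2 at -0.11 and Pygo1 at 0.08. Of 11 Wnt target genes 8 were below 0 (median -0.09), with Notum at -0.16 and Sp5 at -0.15. Axin2, a feedback inhibitor that Wnt signalling induces, measured 5.12, 5.12, 5.16 and 5.09 in knockouts 1 to 4 and 4.90, 4.42, 5.10 and 4.45 in wild types 1 to 4. The knockouts lay close together and the wild types were scattered below them, with wild type 3 within the knockout range. The difference was 0.41 (SE 0.14), and it missed the threshold (limma unadjusted p = 0.0127, adjusted p = 0.841).

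**Figure D3:**
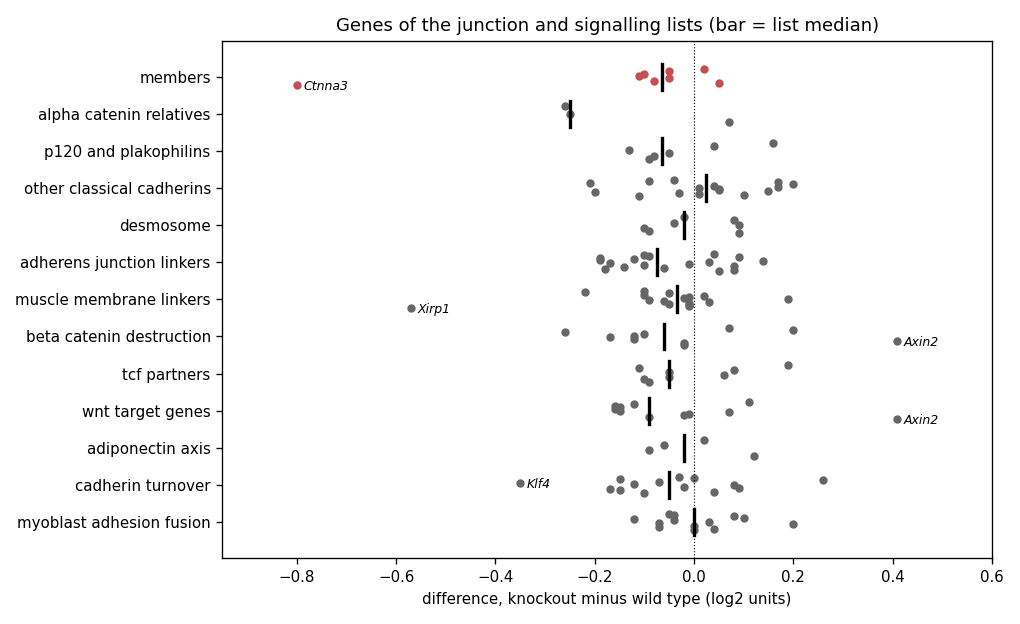
Difference of each gene, knockout minus wild type, in log2 units (x axis) for the members and 12 lists of related genes (rows), with a bar at each list's median. Ctnna3 at -0.80 lies farthest left, and the labelled genes of the other lists are Xirp1 at -0.57, Klf4 at -0.35 and Axin2, a member of 2 lists, at 0.41.

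Partners and regulators of the cadherins made up 2 further lists, and genes of myoblast adhesion and fusion another. In the adiponectin list, 2 of 4 genes were below 0 (median -0.02). Adipoq, the hormone that T-cadherin binds, ranged from 5.11 to 7.06 in knockouts and from 4.89 to 6.59 in wild types, and its receptors Adipor1 and Adipor2 differed by -0.09 and -0.06. Regulators of cadherin cleavage, transport and transcription were below 0 in 10 of 14 cases (median -0.05), with the transcription factor genes Klf4 at -0.35 and Snai2 at 0.26 and the gamma-secretase gene Ncstn at -0.15. Klf4 measured 5.70 ± 0.22 in knockouts and 6.05 ± 0.30 in wild types, with overlapping groups (limma unadjusted p = 0.0386, adjusted p = 0.861). Snai2 was the 1 gene of 14 whose groups lay apart, with knockouts higher, beside 1.48% of all genes (limma adjusted p = 0.861). Myoblast adhesion and fusion genes were below 0 in 6 of 13 cases (median 0.00), with Itgb1 at -0.12, the fusion gene Mymx at 0.20 and Itga7 at 0.10.

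Markers of cell types in the muscle were read beside the members. Over all genes, 54.7% were below 0 and the median difference was -0.01. Satellite cell markers, the cells of Cdh15, had list means of 5.51 to 5.56 in knockouts and 5.54 to 5.56 in wild types; 7 of 12 were below 0, with Met at -0.22, Cxcr4 at 0.14 and Fgfr4 at -0.09. Endothelial markers, the cells in which Cdh13 is abundant, were below 0 in 13 of 17 cases. Their means were 6.57 to 6.94 in knockouts and 6.63 to 6.96 in wild types, and the list median was -0.06. Eng, Emcn and Tek, named for the smallest p, differed by -0.39, -0.24 and -0.16. The other 4 of the 17 were above 0, by up to 0.12. Schwann cell markers were below 0 in 9 of 12 cases (median -0.18; Ncmap -0.57, Gfra3 0.30, Pllp -0.28). Smooth muscle and pericyte markers were below 0 in 7 of 11 (median -0.03; Acta2 -0.28, Pdgfrb -0.24, Cspg4 0.19) and fibro-adipogenic markers in 6 of 10 (median -0.02; Pi16 -0.29, Mfap5 -0.24, Dcn 0.13). Adipocyte markers were below 0 in 3 of 7 (median 0.02; Lep 0.35, Plin1 -0.21, Retn -0.15) and fast-fibre markers in 5 of 12 (median 0.01; Tnnc2 0.11, Myh2 -0.49, Myh1 -0.25).

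Knockout 4, the animal with the least Ctnna3, also stood at one end of the arrays in several marker lists. Its list mean was lowest for slow-fibre, fast-fibre (11.70) and fibro-adipogenic (7.66) markers. It was highest for macrophage and adipocyte (6.84) markers. It was at neither end for satellite cell, endothelial, Schwann cell, or smooth muscle and pericyte markers. Macrophage markers were above 0 in 20 of 22 cases (median 0.20), and 4 of the 22 separated the groups, where 1.48% of all genes did so upward. These were Adgre1 (0.20), Cd68 (0.68), Itgam (0.24) and Lgals3 (0.70), chosen after their values were seen. Knockout 4 stood far above the rest in Cd68, at 7.35 against 5.70 to 6.18 in the other knockouts and at most 5.68 in wild types. In Lgals3 it measured 7.75, against 6.04 to 6.47 in the other knockouts and at most 5.98 in wild types. Gpnmb had the largest difference of the list (1.29), with overlapping groups. It was 9.09 in knockout 4, 5.32 to 6.59 in the other knockouts and 5.21 to 5.47 in wild types. The markers below 0 were Cd163 (-0.11) and Cd14 (-0.02). Gpnmb, Cd163 and Cd14 were also chosen after their values were seen. The list mean of the 22 markers was 5.56, 5.50, 5.71 and 6.00 in knockouts 1 to 4 and 5.35, 5.40, 5.48 and 5.33 in wild types 1 to 4. The log2 of their summed linear values was 10.32 to 11.17 in knockouts and 10.11 to 10.30 in wild types. Every knockout was above every wild type, and knockout 4, lowest in Ctnna3, was highest. No marker was at 0, and Tyrobp, C1qb and Mpeg1 differed by 0.65, 0.42 and 0.55 (lowest limma adjusted p of the list 0.611). Slow-fibre markers were above 0 in 8 of 10 cases (median 0.30). Their list mean was 7.06, 8.08, 8.46 and 5.46 in knockouts 1 to 4 and 6.15, 7.91, 6.26 and 7.73 in wild types 1 to 4, and the log2 of their sum 9.13 to 12.20 in knockouts and 9.75 to 11.59 in wild types. The groups overlapped widely, knockout 4 was lowest and no marker was at 0; Tnnc1, Tnnt1 and Atp2a2 differed by 0.80, 0.54 and 0.35. The slow-fibre means of knockouts 2 and 3 were above those of every wild type. The part of any marker list in the Ctnna3 difference was not tested. Leaving out knockout 4 and wild type 2 together gave a Ctnna3 difference of -0.66, which does not test any of the lists.

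**Figure D4:**
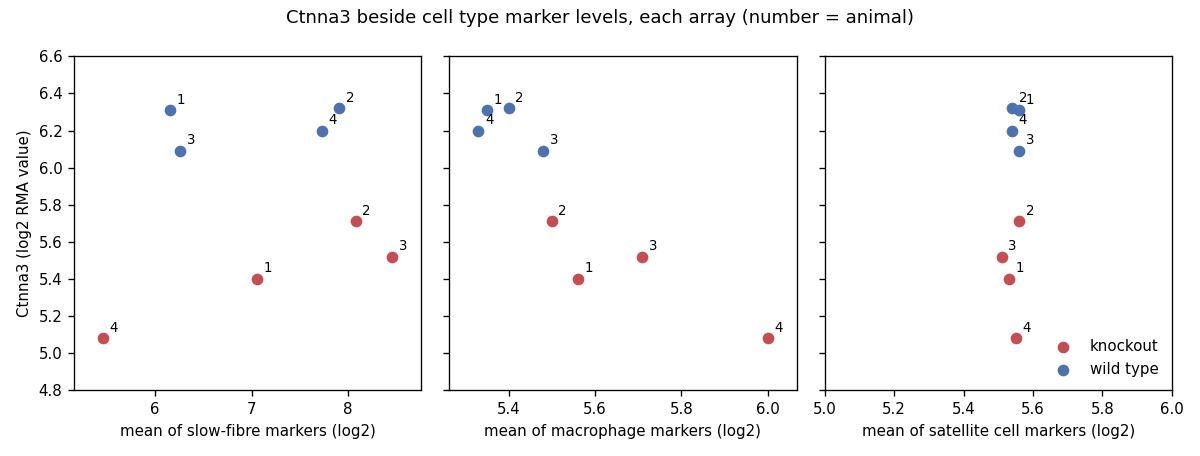
Ctnna3 (y axis, log2 RMA value) against the mean log2 level of slow-fibre, macrophage and satellite cell markers (x axes), 1 point for each of 4 knockouts and 4 wild types, numbered by animal. Knockout 4 has the lowest Ctnna3 (5.08) and slow-fibre mean (5.46) and the highest macrophage mean (6.00), and satellite cell means lie between 5.51 and 5.56 in all 8 arrays.

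Values centred on their genotype mean show how the genes varied between animals, apart from the comparison that picked Ctnna3. Among 4288 genes at or above the median gene in mean and in SD within genotype, those most like Ctnna3 over 8 arrays were Chad and Neu2 (Pearson r 0.97 each, Spearman rho 0.90 and 0.95), Tmem8b (0.92 and 0.81), Lnx1 (0.89 and 0.83) and Prg4 (0.89 and 0.88). They were selected as the highest of these genes, so no p is given. The 2 arrays in which the uncentred Ctnna3 value lay farthest from its median were knockouts 4 and 1. Without them r was 0.95, 0.94, 0.81, 0.79 and 0.86 in the same order. Genotype enters that choice, and knockout 2, the highest of its group, stayed in. Whether the likeness holds without the arrays that varied most within genotype was therefore not tested. Chad encodes chondroadherin, a matrix protein of cartilage and tendon, and Prg4 encodes lubricin, a lubricant of joints and tendons. Chad measured 6.32, 8.06, 7.11 and 5.27 in knockouts 1 to 4 and 7.05, 6.92, 6.42 and 6.44 in wild types 1 to 4. It was highest in knockout 2 and lowest in knockout 4, as Ctnna3 was among knockouts, but its genotype difference was -0.02, against -0.80 for Ctnna3. Genotype differences were 0.11 for Neu2, -0.24 for Tmem8b, 0.08 for Lnx1 and -0.21 for Prg4, and the lowest limma adjusted p of these was 0.869.

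Genes most like the other members under the same rule followed them with Pearson r between 0.95 and 0.99 over 8 arrays. They were Fam135b and Ap5z1 for Ctnna1, Ppip5k2 and Kcna7 for Ctnnb1, Tnfsf10 and Zfp729b for Ctnnd1, and Tmem88 and Btbd19 for Jup. Inf2 and Ccdc80 were most like Cdh2, Lrrc61 and Fbxo28 most like Cdh13, and Pa2g4 and Tmem230 most like Cdh15. For Jup, the likeness to Tmem88 and Btbd19 fell to r = 0.62 and 0.49 without its 2 most distant arrays, also chosen by uncentred values.

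Among the members themselves, 28 pairs were compared by the same centred values, with an exact two-sided permutation test over all 576 reorderings of the arrays within genotype. Ctnna3 had r between -0.41 (Cdh15) and 0.50 (Ctnnd1) with the other 7, and the lowest adjusted p of these pairs in the exact permutation test was 0.689 for r and 0.486 for rho. Jup and Cdh15 ran opposite ways (r = -0.94, exact permutation p = 0.00174, the smallest this test can give, adjusted p = 0.0486 over 28 pairs; rho = -0.95, exact permutation p = 0.00347, adjusted p = 0.0972). Knockout 2 and wild type 4 were highest in Jup and lowest in Cdh15 within their groups. Without the 2 arrays in which the uncentred Jup value lay farthest from its median r was -0.94. After the arrays were normalized again, by quantiles, medians or cyclic loess, r was -0.84, -0.71 and -0.85 and the pair no longer passed (exact permutation adjusted p = 0.389, 0.527 and 0.292). Without any single array r lay between -0.98 and -0.89, with an exact permutation adjusted p of 0.0972 to 0.194. Fewer arrays leave fewer reorderings and raise the smallest p, so the pair could hardly pass there. These p do not decide whether the relation was weaker. Ctnnd1 and Cdh13 ran the same way (r = 0.89, exact permutation p = 0.0122, adjusted p = 0.170; rho = 0.81, exact permutation p = 0.0365, adjusted p = 0.486), and r was 0.65 without the 2 most distant arrays. The labels give no batch, so these relations could not be set within batches.

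**Figure D5:**
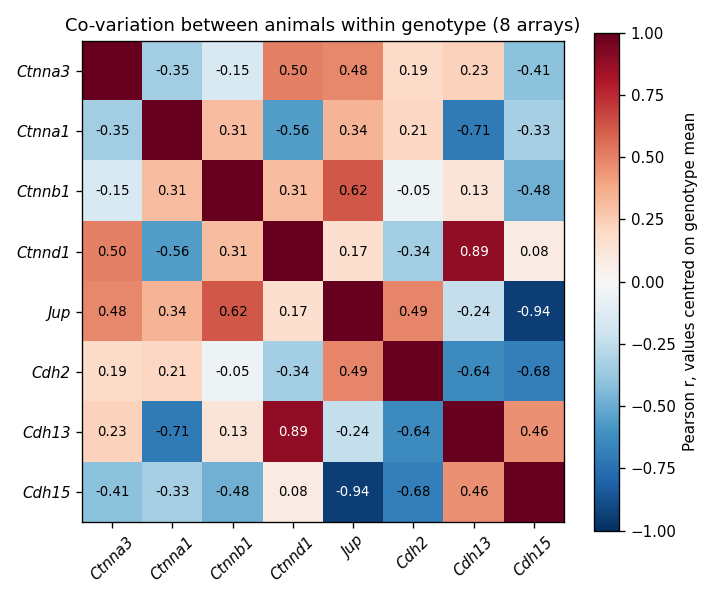
Pearson r between the 8 members (rows and columns) over 8 arrays, from log2 values centred on each genotype's mean, on a colour scale from -1 to 1. Jup and Cdh15 have the lowest value, -0.94, Ctnnd1 and Cdh13 the highest, 0.89, and Ctnna3 lies between -0.41 and 0.50 with every other member.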

How the data were processed

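Gene expression was measured in gastrocnemius RNA of 8 mice, 1 array each. The deposited values are on the log2 scale; RMA and Affymetrix Expression Console are named as tools in the submitters' processing notes. The software version, its settings and the build are not given in the sources used here. RMA compresses differences of dim genes. The table held 35556 transcript clusters. The platform annotation gave 21789 of them 1 symbol and 1621 several, and 12146 were unnamed here. The cluster with the highest mean stood for each of 19938 genes, and no dim gene was left out. Of the clusters with 1 symbol, 21698 matched the GRCm38.p6 RefSeq gene table.

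Knockout and wild type, grouped by the labels, were compared with limma 3.58.1 in R 4.3.3 (lmFit, eBayes), adjusted by Benjamini-Hochberg over all genes; differences are knockout minus wild type, and steps were tested on simulated data. Named genes were the members, Kat2a, up to 3 genes of each list by smallest p, genes nested in alpha-catenin genes, genomic neighbours by position and the genes most alike within genotype. The members and lists were chosen with earlier results of these data known. Alternatives were 3 normalizations, the mean over a gene's clusters, filters on dim genes, array weights, an intensity trend, the replicate block, all clusters and left-out arrays. Those of the Jup and Cdh15 correlation were chosen after seeing the data. Figures used matplotlib 3.10.9 in Python 3.11.15.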

Additional observations from a re-analysis of the deposited data

Results flagged for a closer look

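Within groups of 4 arrays, 93 named genes were searched for a single array far from the other 3 by Dixon's gap test. Chance flags about 5% of groups, and 8 of 186 groups were flagged. Among the members, Ctnna1 measured 6.68 in wild type 2, below 6.77 to 6.78 in the other wild types, and Cdh13 measured 8.79 there, above 8.48 to 8.53. Gsk3b was also high in wild type 2, at 8.71 against 8.40 to 8.44. In knockout 4, the plakophilin gene Pkp2 measured 5.62 against 5.10 to 5.18 in the other knockouts, and the desmosomal gene Dsc3 3.41 against 3.13 to 3.17. Lrrtm3, nested in Ctnna3, measured 4.30 in wild type 3 against 4.82 to 4.88 in the other wild types. Fam135b measured 5.56 in knockout 3 against 5.73 to 5.75, and Btbd19 5.42 in knockout 2 against 4.94 to 5.00 in the other knockouts.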

How the results depend on the processing

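The Ctnna3 difference lay between -0.90 and -0.66 under 19 alternatives, a description, since the same arrays picked the gene. It could not move from -0.80 with the filters on dim genes, the mean over clusters or the intensity trend. Nor could it with the replicate block or all deposited clusters. Of the 7 other members, 0 passed limma's threshold under any alternative (0 to 0 without single arrays). Cdh2 was not tested without the dimmest 25% or 50% of genes. The count of all genes past the threshold moved from 3 to 11 and 13 without the dimmest 25% and 50% of genes, 17 with an intensity trend and robust prior, 0 with the replicate block, 0 over all deposited clusters, 1 without wild type 2 and knockout 4, and 0 to 5 without single arrays; the cause was not tested. Kat2a stayed at -0.68 to -0.64 without single arrays, with limma adjusted p from 0.00916 to 0.137 over all alternatives. Same-numbered animals had correlations of 0.09, 0.07, 0.22 and -0.10 in their deviations. Of the 4 knockouts, 2 correlated best with the wild type of their own number. These few values cannot decide whether the numbers pair the animals. With the replicate block Ctnna3 differed by -0.80, and the limma adjusted p of Kat2a was 0.113. Signs reversed for Ctnnd1 (-0.08 to 0.00227) and Cdh13 (-0.08 to 0.02) without single arrays, both at 0.02 without wild type 2 and knockout 4, and for Cdh15 (-0.04 to 0.06): -0.01 without knockout 1, -0.02 without knockout 4 and -0.04 without wild type 4. The Jup and Cdh15 correlation stayed between -0.98 and -0.89 without single arrays but no longer passed there. Fewer arrays raise the smallest p, so it could hardly pass. Dim signal limits Cdh2, Ctnna2 and the desmosome genes.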
